A study of Mus musculus with 2 samples.

Results

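The genes described are 51 mitotic genes, taken by name from a list of kinases and cyclins of mitotic entry, kinetochore and checkpoint proteins, spindle motors and condensin. All 51 were found among the 49492 gene symbols of the deposited tables. The study sequenced RNA of cultured Nestin+ mesenchymal stromal cells, with 1 library from bone marrow and 1 from heart. Both libraries are from C57BL/6 mice aged 7 days that carry a Nestin-GFP transgene, a green fluorescent reporter of Nestin, and both cultures were harvested at passage 10. The heart cells were grown with 20 ng/ml EGF, 20 ng/ml bFGF and 4 ng/ml cardiotrophin-1 and were passaged at intervals of 3 days. The marrow cells were grown in a different medium, which the labels describe only by citing an earlier study. Tissue and medium therefore cannot be told apart. The number of animals, any pooling and the way the cells were sorted is not given in the sources used here.

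Mitosis is driven by Cdk1 bound to cyclins A and B, which is held off by inhibitory phosphorylation and released by CDC25 phosphatases. Kinetochores attach chromosomes to spindle microtubules, a checkpoint delays anaphase until all are attached, and the anaphase-promoting complex then marks cyclin B and securin for destruction. Most of these genes are transcribed late in the cell cycle and are low in resting cells, so their RNA is widely used as a readout of dividing cells in a culture.

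Levels are given in RPKM, reads scaled by gene length and by library size, and the libraries held 53999963 reads (marrow) and 64872683 reads (heart) as recovered from the deposited values. All 6 stromal markers were above 5 RPKM in both libraries, but not all at like levels. Pdgfrb had 133 RPKM in marrow and 139 in heart, Col1a1 had 1777 and 1751 RPKM and Col1a2 had 960 and 978 RPKM. Col3a1 with 129 and 1388 RPKM and Pdgfra with 11.6 and 27.6 RPKM were higher in heart, and Vim had 962 and 521 RPKM. Nes itself had 1.20 RPKM in marrow and 8.74 in heart. The 5 cardiomyocyte markers summed to 0.611 RPKM in marrow and 0.404 in heart, the 4 endothelial markers to 0.0618 and 0.0872, and the 4 erythroid markers to 0 and 0.0192. The 8 leukocyte markers summed to 1.56 and 5.45 RPKM, of which Cd53 gave 1.03 and 4.80 RPKM; the defining gene Ptprc had 0.00469 and 0 RPKM. The part of Cd53-expressing cells in the results was not tested.

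Nearly the whole mitotic set was lower in the heart library. The RPKM was higher in marrow for 50 of the 51 genes, where 58% of all genes at or above 1 RPKM in either library lay that way. The ratio of marrow RPKM to heart RPKM had a median of 4.06 over the 51 genes, with quartiles of 3.37 and 4.48, against a median of 1.09 over those 11355 genes. It was at least 3-fold for 43 of the 51, where the share of all genes was 7.35%. In bulk RNA, fewer dividing cells and less mitotic RNA in each cell cannot be told apart.

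A gene was called when log2 of (heart RPKM + 1) over (marrow RPKM + 1) was 1 or more in size and its level reached 5 RPKM in at least 1 library. By that rule 31 of the 51 genes were higher in marrow and 0 in heart. Of all 7659 genes that reached 5 RPKM, 9.51% were called toward marrow and 7.56% toward heart. A further 17 genes were below 5 RPKM in both libraries and so could not be called, and 3 were within 2-fold: Pttg1, Cdc25b and Smc4. With the level lowered to 1 RPKM, 45 were higher in marrow and 0 in heart, against backgrounds of 9.26% and 7.78%. The median log2 ratio over all 51 was -1.55, and over all genes that reached 5 RPKM it was -0.15. With 1 library a tissue no difference has a replicate check or a test. The ranges in brackets below are 95% intervals of the RPKM ratio that cover counting error only, followed by the reads in marrow and in heart.

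**Figure D1:**
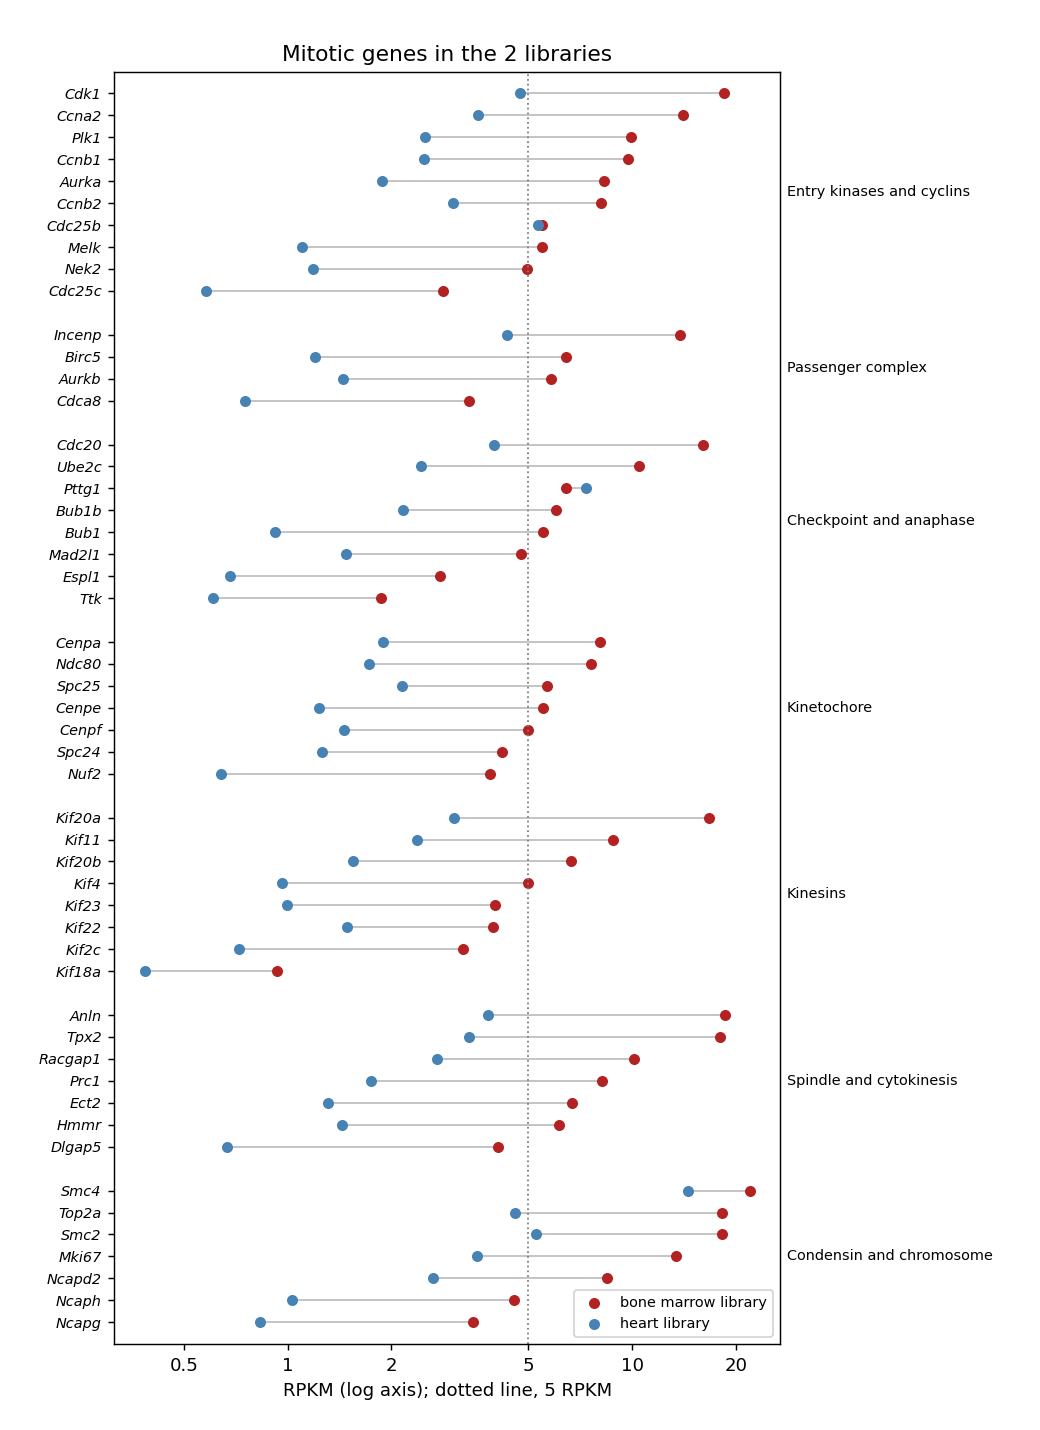
RPKM of each of the 51 mitotic genes (log axis) in the bone marrow library (red) and the heart library (blue), grouped by role and ordered by the bone marrow level. Every gene except Pttg1 has its red point to the right of the blue one; 34 red points and 4 blue points lie at or above the dotted line at 5 RPKM.

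Promoters of the set were read because the members moved together. Many mitotic promoters are known to carry a cell cycle genes homology region (CHR), bound by the DREAM and MuvB complexes, beside CCAAT boxes, bound by the factor NF-Y. The RefSeq window (GRCm38.p6) runs from 250 bases before to 50 bases after the gene start, and 42 of the 51 genes had one. The RefSeq start lay a median of 16.5 bases from the start in the files. It lay 3867 bases away for Kif2c, 2394 for Cdca8, 328 for Kif4 and 270 for Pttg1, whose windows thus do not reach the start in the files. The CHR was searched as TTTGAA, which reads TTCAAA on the other strand, and the CCAAT box as CCAAT, which reads ATTGG there. Both motifs lay before the start in 13 genes, and the 4 of these that are most abundant in marrow are shown so that the arrangement can be seen. Each is written 5′ to 3′ on the strand of its gene, ending at the base before the start, with both motifs in capitals.
Cdk1, chr10:69352913-69353130, minus strand: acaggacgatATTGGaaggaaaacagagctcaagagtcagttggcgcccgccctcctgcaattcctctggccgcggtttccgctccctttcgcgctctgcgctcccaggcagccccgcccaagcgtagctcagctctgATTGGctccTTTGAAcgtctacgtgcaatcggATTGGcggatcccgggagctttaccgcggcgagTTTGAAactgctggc
Top2a, chr11:99024190-99024426, minus strand: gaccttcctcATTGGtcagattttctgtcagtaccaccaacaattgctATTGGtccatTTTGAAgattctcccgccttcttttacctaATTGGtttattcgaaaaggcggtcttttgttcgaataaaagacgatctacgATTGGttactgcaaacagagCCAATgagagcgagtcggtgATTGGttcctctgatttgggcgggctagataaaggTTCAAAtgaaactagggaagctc
Smc2, chr4:52439066-52439220, plus strand: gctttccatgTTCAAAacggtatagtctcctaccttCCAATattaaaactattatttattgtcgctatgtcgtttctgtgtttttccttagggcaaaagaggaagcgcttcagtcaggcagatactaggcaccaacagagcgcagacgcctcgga
Cdc20, chr4:118437344-118437493, minus strand: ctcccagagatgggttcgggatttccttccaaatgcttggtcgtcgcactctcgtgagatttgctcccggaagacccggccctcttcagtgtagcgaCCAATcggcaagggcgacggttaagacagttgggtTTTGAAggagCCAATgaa

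In the stretches shown, the CHR nearest the start begins 15 bases before it in Cdk1, 23 in Top2a and 18 in Cdc20. Before the start, Top2a holds 6 CCAAT boxes, Cdk1 holds 3 and Cdc20 holds 2. Smc2 holds 1 of each motif there, a CHR at 145 bases and a CCAAT box at 119, and has another CHR after the start, which is not shown. Over the 42 windows, 30 (71.4%) held a CHR, where 16.6% of 19039 windows of all genes and 10.8% of the 5942 windows of genes at or above 5 RPKM did. A CHR beginning within 50 bases of the start was found in 27 (64.3%), and in 4.12% of all windows. A CCAAT box was found in 31 (73.8%) against 38.3% of all windows, and both motifs in 26 (61.9%) against 6.65%. E2F-type sites, searched on both strands as TTTCCCGC, TTTCGCGC, TTTGCCGC and TTTGGCGC, were in 4 windows (9.52%) against 2.71% of all windows. Among genes at or above 5 RPKM that share was 4.21%, and a count of 4 is small.

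Within the 42 genes, the ratio of marrow to heart was similar with and without the CHR. The 30 genes with a CHR had a median ratio of 4.04 and the 12 without one had 4.30. Those 12 were Birc5, Bub1, Ccnb1, Cdc25b, Cenpe, Kif18a, Mad2l1, Melk, Ncaph, Nek2, Nuf2 and Pttg1, so they hold Pttg1 and Cdc25b, with ratios near 1, and Nuf2, with a ratio above 6. Outside the mitotic and related lists, 5.98% of 937 genes at or above 1 RPKM with a CHR were at least 3-fold higher in marrow, and 5.88% of 7603 without one. A match says only that these letters are in the window. Aurkb, Ccna2, Cdc25c, Dlgap5, Incenp, Kif20a, Smc4, Spc24 and Tpx2 were not searched.

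**Figure D2:**
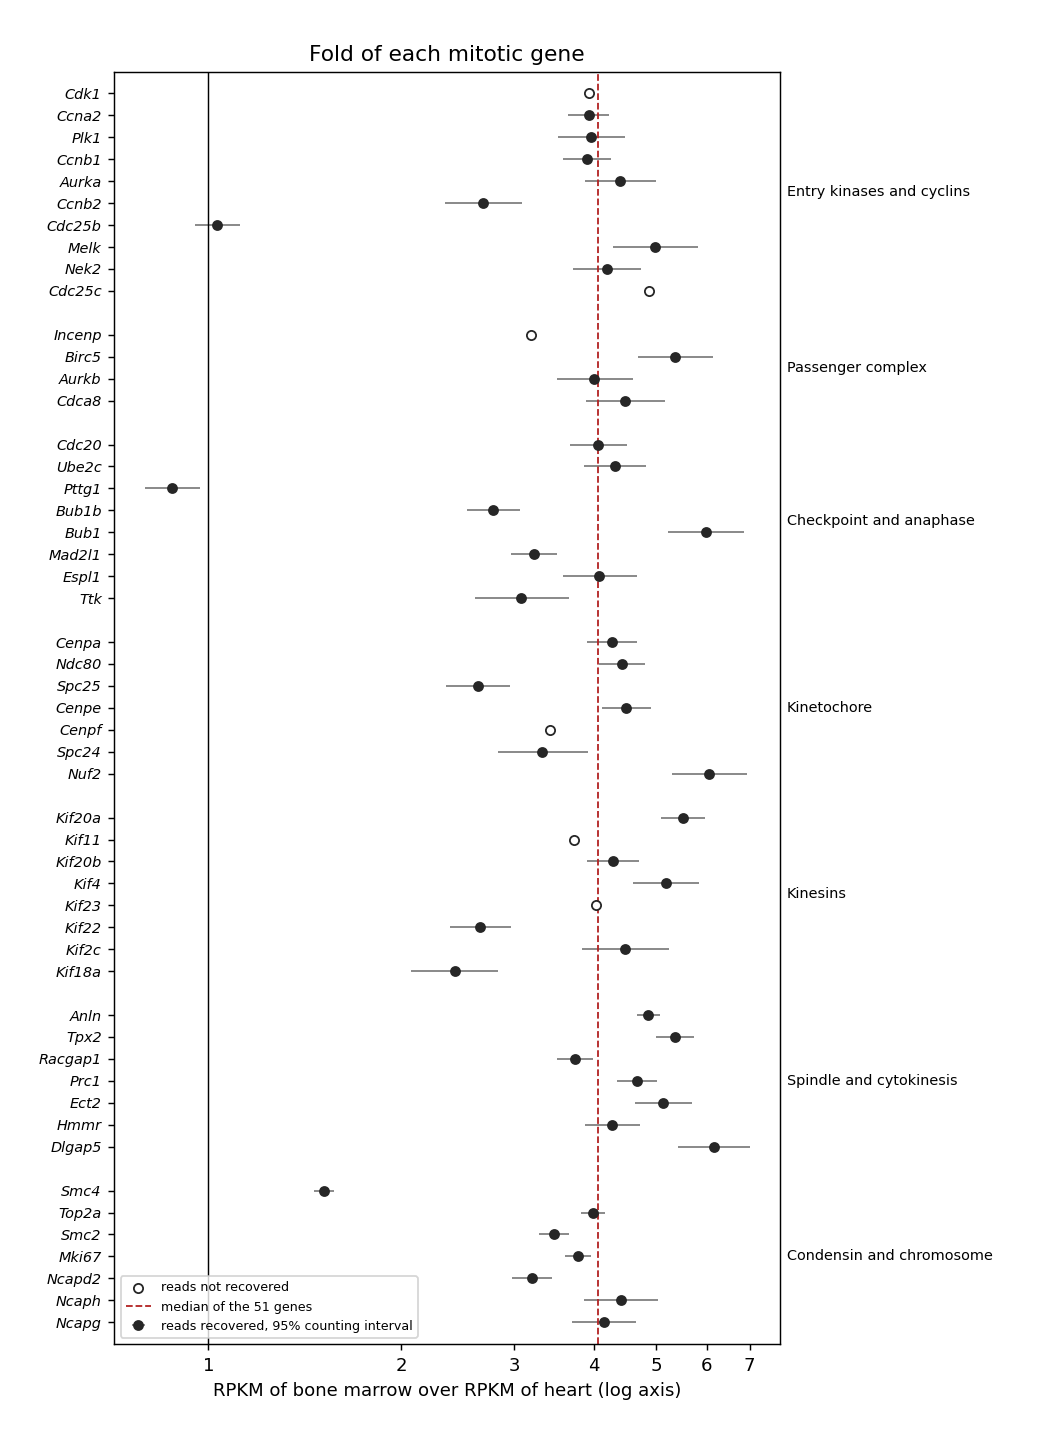
RPKM of bone marrow over RPKM of heart for each of the 51 genes (log axis), with 95% counting intervals where reads were recovered and open circles where they were not. Most points lie between 3 and 6 around the dashed median of 4.06; Cdc25b and Pttg1 lie near 1 and Smc4 at 1.52.

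Of 10 kinases, cyclins and phosphatases of mitotic entry, 7 were higher in marrow, 2 were too low to call and 1 was within 2-fold. Over all genes that reached 5 RPKM, 9.51% were called toward marrow. Cdk1, the catalytic kinase of mitosis, had 18.5 RPKM in marrow and 4.72 in heart, a ratio of 3.93. Its partner Ccna2 (cyclin A2) had 14.03 and 3.58 RPKM, a ratio of 3.92 (3.65 to 4.22, 3093 and 947 reads). Ccnb1 (cyclin B1) had 9.71 and 2.49 RPKM, a ratio of 3.90 (3.58 to 4.26, 2212 and 681 reads). The kinase and these cyclins thus had nearly the same ratio. Of the exon bases of Ccna2, 12.5% lie over Exosc9 on the other strand, at 4.75 and 3.22 RPKM, and reads there may be shared. Ccnb1 has near-identical pseudogene copies, so its value is uncertain where reads were shared with them. Ccnb2 (cyclin B2) had 8.12 and 3.02 RPKM, and its ratio of 2.69 (2.34 to 3.09, 671 and 300 reads) was smaller, with an interval that does not overlap that of Ccnb1.

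Plk1, Aurka, Melk and Nek2, the other kinases of this role group, had ratios at or above that of Cdk1. The intervals of Plk1, Aurka and Nek2 include the Cdk1 ratio of 3.93, and that of Melk does not. Plk1, which acts from centrosome maturation to cytokinesis, had 9.90 RPKM in marrow and 2.50 in heart, a ratio of 3.96 (3.51 to 4.47, 1176 and 357 reads). Aurka, the Aurora kinase of the centrosome, had 8.27 and 1.88 RPKM, a ratio of 4.39 (3.87 to 5.00, 1130 and 309 reads). Melk, a kinase that peaks in mitosis, had 5.48 and 1.10 RPKM, a ratio of 4.99 (4.29 to 5.82, 880 and 212 reads). Nek2, which helps to separate centrosomes, had 4.96 and 1.18 RPKM, just under the level for a call in marrow, with a ratio of 4.19 (3.71 to 4.73, 1210 and 347 reads).

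The CDC25 phosphatases, which remove the inhibitory phosphates from Cdk1, differed from each other. Cdc25c had 2.82 RPKM in marrow and 0.580 in heart, a ratio of 4.87, from levels too low to call. Of the exon bases of Cdc25c, 12.7% lie over Gm3550 on the other strand, at 0.212 and 0.0465 RPKM. Cdc25b (chromosome 2, 131186949 to 131198497, plus strand, as in the files) had 5.49 and 5.33 RPKM, nearly equal levels, and a ratio of 1.03 (0.951 to 1.12, 1106 and 1288 reads). Of its exon bases, 2.47% lie over Spef1 on the other strand, at 2.11 and 4.05 RPKM, and no near-identical transcript was found. Cdc25b ranked 33 of the 51 genes by level in marrow and 3 in heart. Its log2 ratio of -0.04 turned positive, to at most 0.09, under each of the 4 scalings between libraries.

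The chromosomal passenger complex, which corrects faulty attachments and guides cytokinesis, had 3 of 4 genes higher in marrow and 1 too low to call. The share of all genes at 5 RPKM called that way was 9.51%. Incenp, the scaffold, was the most abundant with 13.8 RPKM in marrow and 4.32 in heart, a ratio of 3.18. Aurkb, the kinase of the complex, had 5.80 and 1.45 RPKM, a ratio of 4.00 (3.50 to 4.59, 923 and 277 reads). Birc5, which encodes survivin, had 6.43 and 1.20 RPKM, and its ratio of 5.36 (4.69 to 6.15, 1182 and 265 reads) was the highest of the 4. Cdca8, which encodes borealin, had 3.37 and 0.753 RPKM, under the level for a call, with a ratio of 4.47 (3.89 to 5.15, 941 and 253 reads).

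Checkpoint and anaphase genes had the widest range of ratios of any role group, from 0.878 to 5.97, with 4 of 8 higher in marrow. The share of all genes at 5 RPKM called toward marrow was 9.51%. Cdc20, which activates the anaphase-promoting complex and is held by the checkpoint, had 16.1 RPKM in marrow and 3.97 in heart, a ratio of 4.06 (3.66 to 4.50, 1625 and 481 reads). Ube2c, the ubiquitin-conjugating enzyme of that complex, had 10.5 and 2.44 RPKM, a ratio of 4.31 (3.86 to 4.82, 1475 and 411 reads). Of the exon bases of Ube2c, 22.8% lie over Tnnc2 on the other strand, which was at 0 and 0.0385 RPKM.

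The paralogous checkpoint genes Bub1 and Bub1b were close in marrow and apart in heart. Bub1 had 5.50 RPKM in marrow and 0.920 in heart, a ratio of 5.97 (5.23 to 6.85, 1293 and 260 reads). Bub1b, which encodes BubR1, had 6.02 and 2.16 RPKM, a ratio of 2.79 (2.53 to 3.07, 1389 and 599 reads). Their intervals do not overlap. Mad2l1, which encodes the checkpoint protein Mad2, had 4.77 and 1.48 RPKM, a ratio of 3.22 (2.97 to 3.50, 2163 and 806 reads). Ttk, the checkpoint kinase Mps1, had 1.86 and 0.605 RPKM and a ratio of 3.08 (2.60 to 3.66, 495 and 193 reads), but a log2 ratio of only -0.84 because its level is close to the pseudocount of 1.

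The protease that parts sister chromatids and its inhibitor were far apart. Espl1, which encodes separase, had 2.77 RPKM in marrow and 0.679 in heart, a ratio of 4.08 (3.57 to 4.66, 991 and 292 reads). Pttg1 (chromosome 11, 43420250 to 43426251, minus strand, as in the files), which encodes securin, had 6.44 and 7.33 RPKM. It was the only one of the 51 genes with the higher RPKM in heart, and its ratio of 0.878 (0.795 to 0.969, 695 and 951 reads) was well within 2-fold. Pttg1 ranked 25 by level in marrow and 2 in heart. Its exons overlap no other gene model, and no near-identical transcript was found.

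Kinetochore genes had the higher RPKM in marrow in 7 of 7 cases, and 4 reached the level for a call. Of all genes at or above 1 RPKM, 58% had the higher RPKM in marrow, and 9.51% of those at 5 RPKM were called toward it. Cenpa, the centromeric histone H3 variant, had 8.06 RPKM in marrow and 1.89 in heart, a ratio of 4.27 (3.90 to 4.68, 2182 and 614 reads). Cenpe, a kinesin motor of the outer kinetochore, had 5.52 and 1.23 RPKM, a ratio of 4.50 (4.12 to 4.91, 2410 and 644 reads). Cenpf, a large protein of the outer kinetochore, had 4.97 and 1.46 RPKM, just under the level for a call in marrow, and a ratio of 3.42.

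The 4 genes of the Ndc80 complex, which binds the microtubule end, did not share a single ratio. Ndc80, part of the arm that holds the microtubule, had 7.62 RPKM in marrow and 1.72 in heart, a ratio of 4.42 (4.08 to 4.81, 2718 and 738 reads). Nuf2, its partner in that arm, had 3.87 and 0.639 RPKM, a ratio of 6.05 (5.30 to 6.94, 1325 and 263 reads). Spc24 and Spc25 form the arm that faces the centromere. Spc24 had 4.18 and 1.26 RPKM, a ratio of 3.32 (2.83 to 3.91, 581 and 210 reads), and Spc25 had 5.65 and 2.14 RPKM, a ratio of 2.64 (2.35 to 2.96, 972 and 443 reads). The intervals of the first arm lie above those of the second.

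Mitotic kinesins had the higher RPKM in marrow in 8 of 8 cases, and 3 reached the level for a call. The shares of all genes were again 58% by direction at 1 RPKM and 9.51% by call at 5 RPKM. Kif20a, a motor of the central spindle, had 16.8 RPKM in marrow and 3.05 in heart and the lowest log2 ratio of the 51 genes, -2.13, with a ratio of 5.50 (5.08 to 5.96, 3438 and 751 reads). Its exons share 29.3% of their bases with Cdc23 on the other strand, at 5.99 and 5.41 RPKM, and without known use of strand the reads of these genes cannot be told apart. Kif11, the motor that pushes spindle poles apart, had 8.82 and 2.37 RPKM, a ratio of 3.72. Kif20b, a motor of late mitosis, had 6.63 and 1.55 RPKM, a ratio of 4.28 (3.89 to 4.71, 1991 and 559 reads).

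The other 5 kinesins were below 5 RPKM in both libraries. The chromokinesin Kif4 had 4.997 RPKM in marrow, just under the level, and 0.964 in heart, a ratio of 5.18 (4.61 to 5.84, 1488 and 345 reads). Of its exon bases, 15.1% lie over Pdzd11 on the other strand, which was higher than Kif4 in both libraries, at 12.6 and 8.88 RPKM. The value of Kif4 is uncertain where reads were shared. Kif23, the motor of centralspindlin, had 4.00 and 0.995 RPKM, a ratio of 4.025. Kif2c, which takes microtubule ends apart at kinetochores, had 3.24 and 0.724 RPKM, a ratio of 4.47 (3.83 to 5.24, 763 and 205 reads). Kif22 and Kif18a had the smallest ratios of the 8. Kif22 had 3.95 and 1.49 RPKM, a ratio of 2.66 (2.38 to 2.97, 1046 and 473 reads). Kif18a, the least abundant of the 51 genes in both libraries, had 0.930 and 0.384 RPKM, a ratio of 2.42 (2.07 to 2.83, 494 and 245 reads).

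Spindle and cytokinesis genes had the highest median ratio of the role groups, 4.86, with 6 of 7 higher in marrow and 1 too low to call. The share of all genes at 5 RPKM called toward marrow was 9.51%. Tpx2, a microtubule nucleator that activates Aurora A, had 17.97 RPKM in marrow and 3.36 in heart, a ratio of 5.35 (5.00 to 5.73, 4538 and 1019 reads). Anln, which encodes anillin of the contractile ring, had 18.6 and 3.83 RPKM, a ratio of 4.86 (4.66 to 5.07, 11032 and 2726 reads). Ect2, the exchange factor that activates RhoA at the cleavage site, had 6.71 and 1.31 RPKM, a ratio of 5.13 (4.63 to 5.70, 1953 and 457 reads). These 3 cover nucleation, the ring and its activator, and each was near 5-fold.

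Prc1, which bundles microtubules of the central spindle, had 8.18 RPKM in marrow and 1.75 in heart, a ratio of 4.67 (4.35 to 5.03, 3632 and 934 reads). Racgap1, the partner of Kif23 in centralspindlin, had 10.1 and 2.72 RPKM, and its ratio of 3.74 (3.50 to 3.99, 3878 and 1247 reads) was the smallest of the group. Hmmr, a spindle and hyaluronan-binding protein, had 6.15 and 1.44 RPKM, a ratio of 4.27 (3.87 to 4.72, 1805 and 508 reads). Dlgap5, which stabilises spindle microtubules, had the highest ratio of all 51 genes, 6.15 (5.41 to 7.00, 1469 and 287 reads), from 4.09 and 0.665 RPKM, levels too low to call.

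Of 7 condensin and chromosome genes, 4 were higher in marrow, 2 were too low to call and 1 was within 2-fold. Over all genes that reached 5 RPKM, 9.51% were called toward marrow. Top2a, the topoisomerase that untangles sister chromatids, had 18.2 RPKM in marrow and 4.58 in heart, a ratio of 3.98 (3.81 to 4.16, 8867 and 2675 reads). Mki67, which encodes the Ki-67 antigen of the chromosome surface, had 13.4 and 3.55 RPKM, a ratio of 3.77 (3.60 to 3.95, 7273 and 2316 reads). Both ratios lie close to the median of the set and rest on more reads than most others.

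The ATPase subunits of condensin differed from each other. Smc2 had 18.2 RPKM in marrow and 5.26 in heart, a ratio of 3.46 (3.28 to 3.65, 5384 and 1869 reads). Smc4 (chromosome 3, 69004738 to 69034623, plus strand, as in the files), its partner in condensin, had 21.97 and 14.5 RPKM, a ratio of 1.52 (1.46 to 1.57, 6181 and 4901 reads). Smc4 was the most abundant of the 51 genes in both libraries, and it was above Smc2 by more in heart than in marrow. Its exons overlap no other gene model, and no near-identical transcript was found.

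The subunits found only in condensin I had ratios like that of Smc2 or higher. Ncapd2 had 8.44 RPKM in marrow and 2.64 in heart, a ratio of 3.20 (2.98 to 3.44, 2856 and 1072 reads). Ncaph, the kleisin that closes the ring, had 4.54 and 1.03 RPKM, a ratio of 4.40 (3.86 to 5.04, 1056 and 288 reads), and Ncapg had 3.44 and 0.831 RPKM, a ratio of 4.14 (3.69 to 4.66, 1314 and 381 reads). Of the exon bases of Ncapg, 13.4% lie over Lcorl on the other strand, at 1.49 and 1.31 RPKM, and reads there may be shared. The condensin II subunits, which are not members of the set, were divided. Ncapg2 had 9.34 and 2.49 RPKM, a log2 ratio of -1.57, and was called. Ncaph2 with 20.8 and 15.3 RPKM was within 2-fold, and Ncapd3 with 3.22 and 1.88 RPKM was below 5 RPKM.

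**Figure D3:**
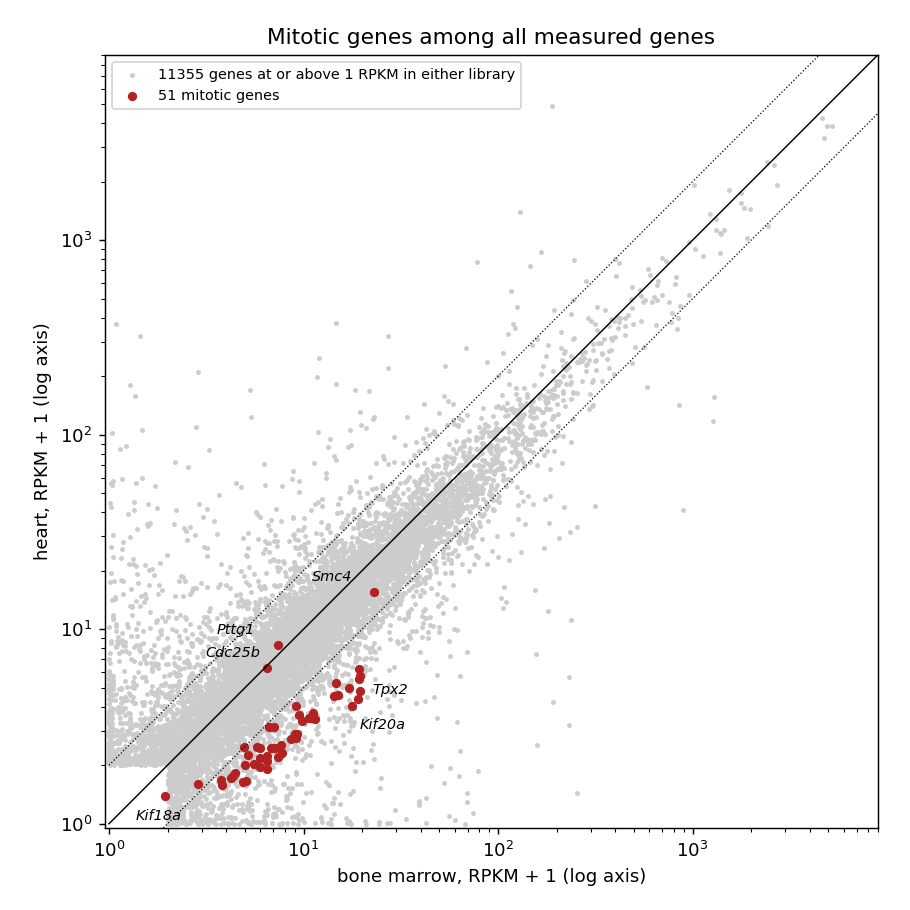
Heart RPKM + 1 against bone marrow RPKM + 1 (both log axes) for the 11355 genes at or above 1 RPKM in either library (grey) and the 51 mitotic genes (red); the solid line marks equal levels and the dotted lines 2-fold on this scale. Most red points form a band below the lower dotted line; Pttg1, Cdc25b, Smc4, Kif22, Ttk and Kif18a lie inside the 2-fold lines.

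The role groups overlapped in their ratios of marrow to heart. Their medians were 4.86 for spindle and cytokinesis, 4.27 for the kinetochore, 4.24 for the passenger complex, 4.15 for kinesins, 3.94 for entry kinases and cyclins, 3.77 for condensin and chromosome genes and 3.64 for checkpoint and anaphase genes. On the log2 scale of RPKM + 1 they ran from -1.74 for spindle and cytokinesis to -1.19 for checkpoint and anaphase genes. That scale understates the difference of low genes. Dlgap5 and Top2a had log2 ratios of -1.61 and -1.79, although the RPKM ratio of Dlgap5 was the higher.

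The order of the genes by level was much alike in the libraries. Over the 51 genes, which share the same 2 libraries, Spearman's rho between marrow and heart RPKM was 0.875 and Pearson's r of log2 RPKM was 0.860. Without Pttg1, Cdc25b and Smc4, which were set apart after their values were seen, they were 0.938 and 0.941. Neither was computed over all genes, so the likeness is not read as a trait of the set. The SD of the log2 RPKM ratio was 0.55 over the 51 genes, and 0.32 without those 3. Over the 11298 genes at or above 1 RPKM in either library and above 0 in both it was 1.60.

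Genes of the same machinery outside the set were read from 9 related lists with 162 symbols, all found. Of 28 other spindle and cytokinesis genes, 16 reached 5 RPKM, of which 12 were higher in marrow, 0 in heart and 4 within 2-fold. Over all genes at that level, 9.51% were called toward marrow and 7.56% toward heart. The median log2 ratio of the 28 was -1.33. Gtse1, Cep55 and Pbk had the lowest, -2.26, -2.11 and -2.01. Cep55, an abscission factor, had 5.85 RPKM in marrow and 0.583 in heart. Kif2a, a kinesin that takes microtubules apart, and Ckap5, a microtubule polymerase, had -0.03 and -0.24.

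Other centromere and kinetochore genes were mostly too low to call. Of 35, 11 reached 5 RPKM and 0 of those were called. With the level at 1 RPKM, 13 were higher in marrow and 0 in heart, against 9.26% and 7.78% of all genes. The median log2 ratio of the 35 was -0.85. Pmf1, Ska2 and Mis12, all of the outer kinetochore, had the lowest ratios at or above 5 RPKM, -0.88, -0.73 and -0.62. Cenpc1, the centromere protein C gene, was the only one of the 35 with the higher RPKM in heart, 5.56 against 4.76.

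The anaphase-promoting complex and cohesin, which act in mitosis but are made in many phases, had medians near that of all genes. Of 17 genes of the complex and its regulators, 14 reached 5 RPKM, of which 1 was higher in marrow, 0 in heart and 13 within 2-fold. Over all genes at that level, 9.51% were called toward marrow and 7.56% toward heart. The median log2 ratio of the 17 was -0.17. The called gene was Fbxo5, which encodes the inhibitor Emi1, with 10.7 RPKM in marrow and 1.90 in heart. Of 13 cohesin genes 0 were called and the median was -0.13, with the kleisin gene Rad21 at -0.26 and the loader gene Mau2 at 0.50. The cohesin regulators Cdca5 (sororin), with 4.63 and 0.739 RPKM, and Esco2, with 2.12 and 0.561 RPKM, were called toward marrow with the level at 1 RPKM.

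Of 18 centriole and centrosome genes, 6 reached 5 RPKM and 0 were called, with a median log2 ratio of -0.45. Of 10 brakes and phosphatases of mitotic entry, 8 reached 5 RPKM, 2 were higher in marrow and 1 in heart. Over all genes that reached 5 RPKM the shares were 9.51% and 7.56%, and the counts here are small. Wee1, a kinase that inhibits Cdk1, had 29.4 RPKM in marrow and 7.54 in heart, and Pkmyt1, which does the same, had 5.99 and 0.960 RPKM. The phosphatase gene Ppp1cc went the other way, with 48.8 and 128 RPKM. Of 15 transcription factor genes of the cell cycle, 8 reached 5 RPKM, 1 was higher in marrow and 0 in heart, a share near the 9.51% of all genes. The called gene was Foxm1, an activator of mitotic genes, with 6.49 and 2.01 RPKM. Mybl2, with 3.01 and 0.519 RPKM, and the repressor gene E2f8, with 1.93 and 0.374 RPKM, were called toward marrow with the level at 1 RPKM. E2f1 had a log2 ratio of -0.23 and the NF-Y gene Nfya had 0.41.

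Kinesins and light chains of intracellular transport lay on both sides. Of 23, 15 reached 5 RPKM, of which 1 was higher in marrow, 2 in heart and 12 within 2-fold. The median log2 ratio was 0.02. Over all genes that reached 5 RPKM, 9.51% were called toward marrow and 7.56% toward heart. Counts this small are not read as a trait of the list. Kif1a, a motor of vesicle transport, had 16.6 RPKM in marrow and 4.50 in heart. Kif21b and Kifc3 were higher in heart, Kif21b with 0.880 and 6.46 RPKM and Kifc3 with 8.19 and 17.7 RPKM. Of the 16 transport genes with a promoter window, 0 held a CHR.

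**Figure D4:**
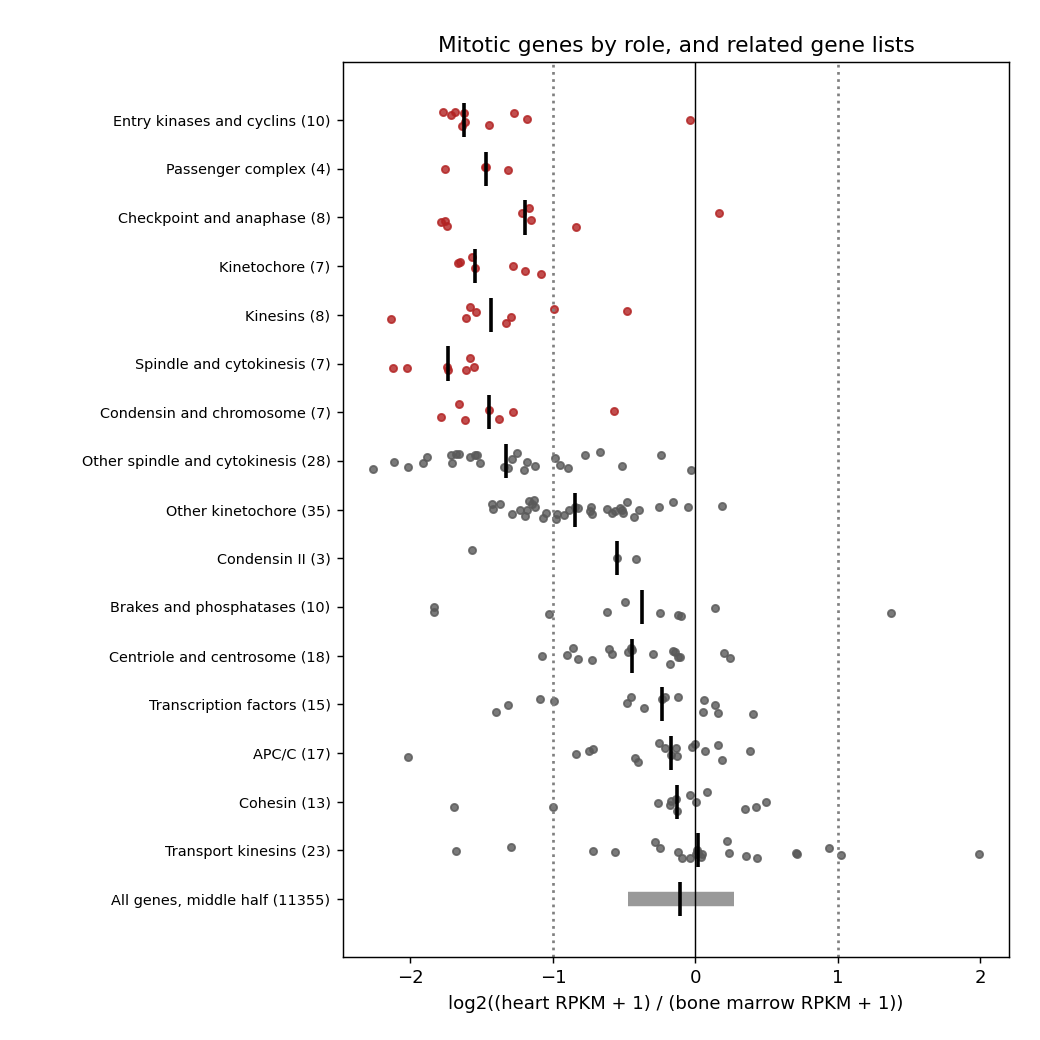
log2 of (heart RPKM + 1) over (bone marrow RPKM + 1) for each gene of the 7 role groups of the 51 mitotic genes (red) and of 9 related lists (grey), with gene numbers in brackets, black bars for medians and a grey bar from the lower to the upper quartile of all 11355 genes at or above 1 RPKM. Red medians lie between -1.74 and -1.19; those of APC/C, cohesin and transport kinesins lie at -0.17, -0.13 and 0.02.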

How the data were processed

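The authors deposited RPKM values, per the file headers, for 49585 gene rows in each of 2 libraries, each made from 1 ug total RNA per the labels' protocols. The submitters' processing notes name mm8, yet 45149 rows (91.1%) match the position of a gene model of GENCODE M21 (GRCm38), so positions are read on GRCm38. Which aligner, counter and strand setting were used is not given in the sources used here.

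With exon-union lengths, values were whole multiples of 1 read for 12292 of 14255 genes above 0 in both libraries (86.2%, within 0.02 reads), which gave the library totals. Reads were recovered for 45 of 51 members, 8 of them from the ratio of both values; that step gave the known reads for 372 of 400 genes tried, none for 28 and wrong ones for 0. Intervals are exact conditional (Clopper-Pearson, 95%). Reads carry no molecular identifiers and are not independent molecules. No p-value was computed.

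Exons of 16 members overlap another gene model, and near-identical transcripts were sought with BLAST 2.17.0 (95% identity, 200 bases). Such a stretch was found for 11 members. Those of Ccnb1, Mad2l1, Mki67, Ndc80 and Racgap1 lie in pseudogenes or another noncoding transcript. The values of these genes are uncertain where reads were shared. Software was scipy 1.17.1, pandas 2.3.3, numpy 2.4.6, matplotlib 3.10.9 and Python 3.11.15. In simulated data of 45149 rows both totals were recovered, 200 of 200 changed genes and 0 of 5426 unchanged genes were called, and intervals covered 94% of folds. Both simulated libraries were drawn from the marrow values with counting error only. The changed genes lay above the floor and were given folds beyond the 2-fold threshold. The simulation checks the code and cannot give a rate of false calls between separate cultures.

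Members and lists were chosen with earlier results of these data known. All 51 members could be named; of each related list the rule took up to 3 genes a direction that differed most and reached 5 RPKM, opposite calls and all condensin II genes. Kif2a, Ckap5, Cdca5, Esco2, Mybl2 and E2f8 fall outside it and were picked with their values in view. Alternatives were other pseudocounts, floors, a 4-fold threshold, 4 scalings, summed rows and 4 broad classes.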

Additional observations from a re-analysis of the deposited data

How the results depend on the processing

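The count of mitotic genes higher in bone marrow, 31, was 45 with the floor at 1 RPKM or without a floor, 31 with a pseudocount of 0.1 and 30 or 31 under the 4 scalings and with summed rows. It was 11 with a pseudocount of 5, 3 with a 4-fold threshold and 0 with a floor of 20 RPKM, which 1 member reaches. The count higher in heart was 0 under all 11 alternatives. The median log2 ratio of -1.55 was -1.95 with a pseudocount of 0.1 and -0.78 with one of 5, since these genes are low; the scalings, which add up to 0.15 to the log2 ratio of abundant genes, gave -1.47 to -1.51. With pseudocounts of 0.1 and 5 the role medians were -2.04 and -0.65 for the kinetochore, -1.75 and -0.61 for checkpoint and anaphase, -1.98 and -0.81 for the passenger complex, -1.89 and -0.82 for condensin and chromosome genes, -1.96 and -0.67 for kinesins, -1.95 and -0.86 for entry kinases and cyclins, and -2.25 and -0.97 for spindle and cytokinesis. In 4 broad classes, Bub1, Bub1b and Ttk were put with the kinases and Cenpe with the kinesins. The other 11 kinetochore and checkpoint genes then formed 1 class, with a median of -1.28. These classes left out 12 of the 51 genes, which had a median of -1.70. With the floor at 1 RPKM, 9.26% of all genes were called toward marrow and 7.78% toward heart. The related lists then had, higher in bone marrow, 3 of 14 transcription factors, 1 of 18 centriole genes and 2 of 13 cohesin genes. So were 13 of 35 other kinetochore genes, 20 of 28 other spindle genes and 2 of 19 transport kinesins. Another 2 of those 19 transport kinesins were higher in heart. Of 9 brakes and phosphatases, 3 were higher in bone marrow and 1 in heart. The smaller counts are not read as a trait of these lists. Of 51 members, 49 had a negative log2 ratio under all 7 alternatives run on single genes; Pttg1 and Cdc25b did not. No paired analysis was possible because each tissue has 1 library. Depth limits the rarer members: Ttk had 193 reads in heart, the fewest of those recovered.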
